A study of Mus musculus with 12 samples.

Results

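The 43 genes described here are cell cycle genes that were chosen by name, and all 43 were found among the 41128 genes of the table. By what their products do, 23 of them act in mitosis and 20 in DNA synthesis (S phase) and the steps that prepare it. RNA from spleen cells of C57BL/6J mice, 6 to 8 weeks old, was sequenced in 4 groups with 3 libraries each (12 in all). Resting B cells that lack the surface protein CD43 came from females and from males, and naive CD4+ CD62L+ T cells likewise. The T cells were enriched on magnetic beads, then flow sorted as CD62L high, CD44 low and CD25 negative, whereas the B cells were taken as CD43-. No genetic change or treatment is given for any group. The methods of the study describe a replicate as cells pooled from several animals, stated there for its methylation libraries, so the spread between libraries may be one between pools. Libraries are called by group and by the number in their label, which is 1 to 3 for B cells and 4 to 6 for T cells.

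Resting lymphocytes lie outside the division cycle, in the state called G0, until antigen drives them back into it. In G0 the retinoblastoma family proteins, with E2F4 and the DREAM complex, hold many cell cycle promoters silent, and on entry the activating E2F factors switch on the S-phase genes. The MCM subunits form the ring-shaped helicase that is loaded at replication origins, and PCNA is the sliding clamp that tethers DNA polymerases. The mitotic genes come on later, from S to M phase, when cyclins A and B with CDK1, the Aurora and Polo kinases and the spindle proteins carry out chromosome segregation. Germinal centre B cells, which divide fast during an immune response, are a known exception among mature splenic B cells.

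All values are adjusted TPM, a per-length measure of transcript abundance that the authors rescaled between libraries, so levels of different genes can be set side by side. Read counts were not analysed here and the depth is unknown. Each value has a deposited lower and upper bound, and for genes between 1 and 10 the median ratio of these bounds was 1.30 to 1.55 per library. Between 11122 and 11543 genes reached 1 in a library. The 4 B cell marker genes read here (Cd79a, Cd79b, Ms4a1 and Pax5) were at 127.6 or more in every B cell library and at most 2.00 in the T cell libraries. The 7 naive T cell markers read here were at 62.3 or more in every T cell library and all were higher there. They are not all particular to T cells, and 3 of them (Lck, Lef1 and Ccr7) were at 1 or more in every B cell library, with Ccr7 at up to 98.3. Cd3d, Cd3e, Cd4 and Tcf7 stayed under 1 in B cells.

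The mitotic genes were far higher in resting B cells than in naive T cells, while the S-phase genes were split, with the helicase subunits at similar levels in both. Summed over the 23 mitotic genes, B cells had 91.4 ± 24.3 adjusted TPM (SD, n = 6) and T cells had 12.6 ± 1.43 (SD, n = 6), a ratio of 7.25. Summed over the 20 S-phase genes, B cells had 320.1 ± 24.9 (SD, n = 6) and T cells had 326.0 ± 29.3 (SD, n = 6), a ratio of 0.98 that was 1.28 after rescaling each library to a common total. Pcna had the largest share of this sum, and the median of the 20 genes within a library averaged 16.4 in B and 4.36 in T cells, a ratio of 3.77. In whole populations of cells, fewer cells of a kind and less RNA per cell cannot be told apart.

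**Figure D1:**
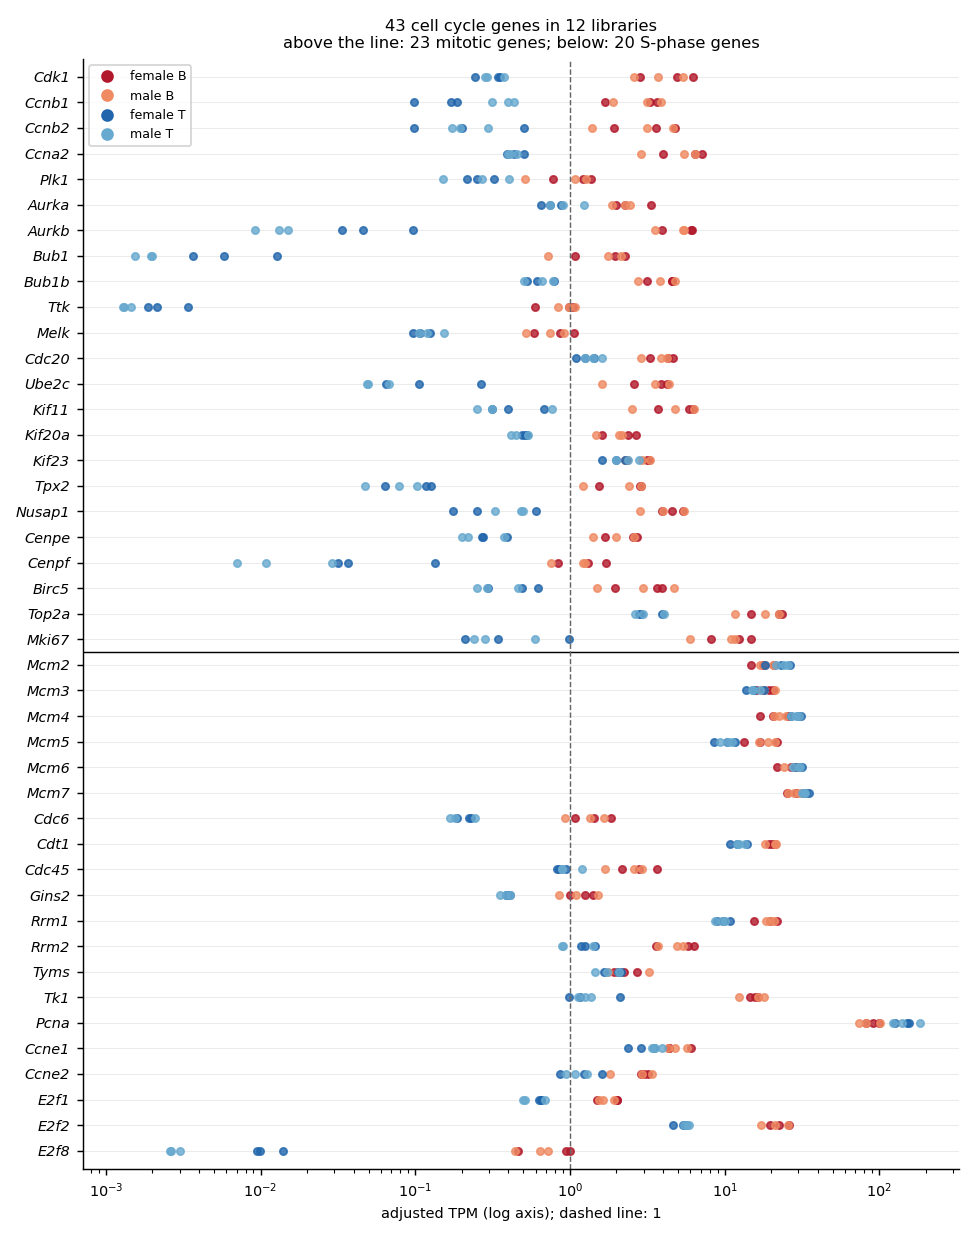
Adjusted TPM (log axis) of the 43 genes in each of 12 libraries, 1 point per library, with the 23 mitotic genes above the horizontal line and the 20 S-phase genes below it. Nearly all mitotic genes show the B cell points to the right of the T cell points, with Kif23 overlapping, and the MCM subunits lie between 8.53 and 35.2 in every library.

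Genes with at least 1 adjusted TPM in at least 3 libraries were tested with limma on log2(adjusted TPM + 1), a scale that understates the change of low genes, and a Benjamini-Hochberg adjusted p under 0.05 over all 12520 genes tested was taken as past the threshold. Of the 43 genes, 40 were tested, and Ttk, Melk and E2f8 were under the filter. Between B and T cells, 34 of the 40 were higher in B cells, where 31.4% of all genes tested were, and 5 were higher in T cells, where 41.6% of all genes were. Only Tyms was not past the threshold (adjusted p = 0.11). After rescaling each library to a common total, 0 of the 40 were called higher in T cells, with larger standard errors for genes such as Mcm7 (0.19 in place of 0.06). Of the 40 genes, 20 reached 1 in B cell libraries only, and these could pass the filter only by being higher there. Among the 18 genes that would have passed it on the T cell libraries alone, 12 were higher in B cells and 5 in T cells.

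Every B cell library lay above every T cell library for 22 of the 23 mitotic and 13 of the 20 S-phase genes, against 24.2% of all genes tested. The reverse order held for no mitotic gene and for 2 S-phase genes (Mcm4 and Pcna), against 29.7% of all genes. With the deposited bounds in place of the values, the lowest lower bound in B cells was above the highest upper bound in T cells for 20 mitotic and 8 S-phase genes (16.7% of all genes), and the reverse held for Pcna alone (17.7% of all genes). Of the 21 mitotic genes tested, 17 reached 1 in B cell libraries only, so the filter fixed the direction of their change but did not set its size. The median log2 fold change of B over T cells was 1.57 for the 21 genes. Ttk and Melk, which the filter left out, had 0.93 and 0.66 when fitted without it. The 3 mitotic genes that would have passed on T cell libraries alone were all higher in B cells. The median was 0.66 for the 19 S-phase genes tested, 3 of which reached 1 in B cell libraries only, and -0.09 for all genes tested. Over all 23 mitotic and all 20 S-phase genes, tested or not, the median ratio of B to T cell means was 10.96 and 1.89.

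**Figure D2:**
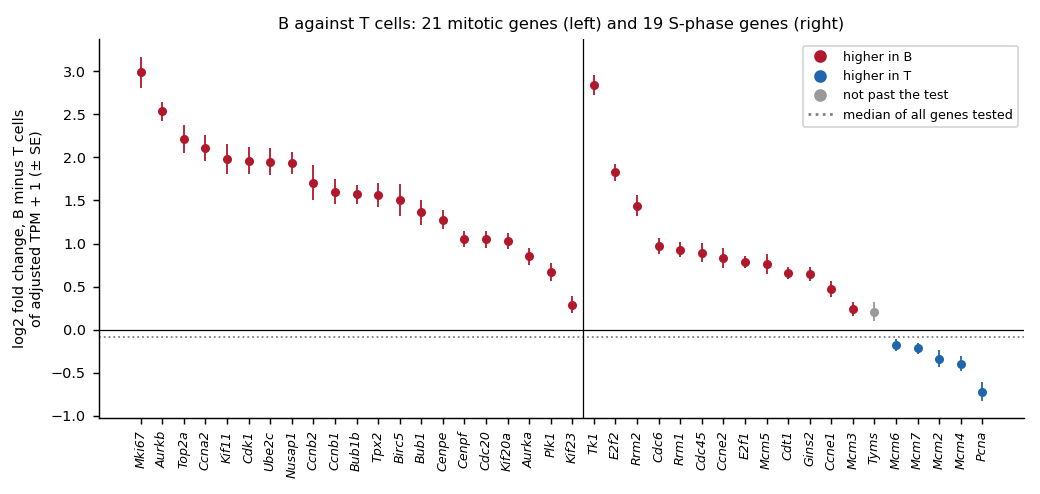
Log2 fold change of adjusted TPM + 1, B minus T cells, with its standard error from limma over 12 libraries, for the 21 mitotic (left) and 19 S-phase genes tested (right). All 21 mitotic genes are above 0, from 0.29 for Kif23 to 2.99 for Mki67, and the 5 S-phase genes below 0 are Pcna and 4 MCM subunits, of which Mcm2, Mcm6 and Mcm7 change sign when libraries are rescaled to a common total.

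Promoters of the genes were read from RefSeq (GRCm38.p6) as windows of 300 bases, 250 before and 50 after the annotated start, since the mitotic and the S-phase genes are known to be switched by different elements. Of the 43 genes, 36 had a window, and 2 of them had 2, which gave 38 windows. The E2F element was searched as TTTCCCGC, TTTGGCGC or TTTCGCGC, the cell cycle genes homology region (CHR) as TTTGAA or TTTAAA, and the box bound by the factor NF-Y as CCAAT, each on both strands and with overlapping matches counted. The CHR and CCAAT letters occurred together in 15 of 19 mitotic windows (78.95%) and in 6 of 19 S-phase windows (31.6%), beside 10.7% of all 32851 windows of the reference. The E2F letters were found in 1 mitotic window (5.26%, that of Cdk1), in 7 S-phase windows (36.8%) and in 1.85% of all windows. Of the 6 windows of MCM subunits, 4 held the E2F letters and all 6 held CCAAT. Counted by itself, CCAAT was in 84.2% of mitotic, 68.4% of S-phase and 37.4% of all windows. The CHR by itself was in 84.2%, 42.1% and 27.6% in the same order.

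**Figure D3:**
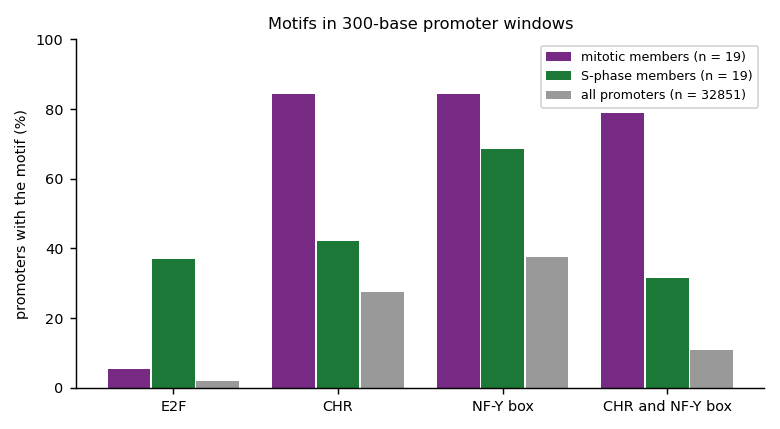
Percent of 300-base promoter windows that hold each motif on either strand, for 19 windows of mitotic genes, 19 of S-phase genes and all 32851 windows of the reference. The bars for the CHR (84.2%) and for the CHR together with the NF-Y box (78.95%) are tallest in the mitotic genes, and the bar for E2F (36.8%) in the S-phase genes.

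The windows of Top2a and Mki67, the mitotic genes with the highest level and the largest log2 fold change, and of Mcm5 and Mcm6, helicase subunits that went opposite ways between the cell types under the authors' scaling, are given as examples. They are written along the strand of the gene, Top2a at chr11:99024140-99024439 (minus), Mki67 at chr7:135716330-135716629 (minus), Mcm5 at chr8:75109259-75109558 (plus) and Mcm6 at chr1:128359656-128359955 (minus). Capitals mark the matches to the letters above on either strand.
Top2a: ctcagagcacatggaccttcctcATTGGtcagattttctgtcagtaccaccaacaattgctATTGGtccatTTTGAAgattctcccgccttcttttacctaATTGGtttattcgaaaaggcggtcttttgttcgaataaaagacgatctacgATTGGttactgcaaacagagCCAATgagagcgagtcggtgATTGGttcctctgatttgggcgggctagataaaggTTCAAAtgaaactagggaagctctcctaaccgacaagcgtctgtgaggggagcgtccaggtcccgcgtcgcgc
Mki67: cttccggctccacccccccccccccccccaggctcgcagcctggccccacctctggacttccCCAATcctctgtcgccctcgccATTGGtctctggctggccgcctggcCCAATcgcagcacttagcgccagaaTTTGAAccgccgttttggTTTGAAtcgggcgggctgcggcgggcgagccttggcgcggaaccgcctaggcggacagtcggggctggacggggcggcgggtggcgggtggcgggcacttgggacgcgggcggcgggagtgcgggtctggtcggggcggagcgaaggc
Mcm5: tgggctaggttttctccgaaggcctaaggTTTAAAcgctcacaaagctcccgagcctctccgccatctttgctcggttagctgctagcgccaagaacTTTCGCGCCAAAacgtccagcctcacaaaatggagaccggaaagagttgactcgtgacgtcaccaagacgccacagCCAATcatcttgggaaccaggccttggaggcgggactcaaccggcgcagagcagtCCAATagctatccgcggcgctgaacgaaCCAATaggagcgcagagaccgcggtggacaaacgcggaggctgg
Mcm6: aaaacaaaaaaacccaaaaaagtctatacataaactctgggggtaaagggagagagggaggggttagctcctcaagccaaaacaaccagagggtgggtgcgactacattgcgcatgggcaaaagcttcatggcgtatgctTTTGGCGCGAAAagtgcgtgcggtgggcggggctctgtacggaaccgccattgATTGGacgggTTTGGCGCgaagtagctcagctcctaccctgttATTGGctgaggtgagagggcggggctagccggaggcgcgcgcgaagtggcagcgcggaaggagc
The Top2a window holds 6 CCAAT and 2 CHR matches, and that of Mki67 holds 3 CCAAT and 2 CHR matches, with no E2F match in either. The Mcm5 window holds 2 E2F, 1 CHR and 3 CCAAT matches, and that of Mcm6 holds 3 E2F and 2 CCAAT matches, the first 2 E2F matches of each lying over each other. Mcm5 thus has the CHR with CCAAT as well, and the Mcm2 window, not written out here, has 1 CHR and 1 CCAAT match but no E2F match. Such matches describe letters, and binding was not measured here.

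The highest mean levels of the mitotic group were those of Top2a and Mki67, which act on mitotic chromosomes. Top2a (chromosome 11, 98992943 to 99024189), encoding the topoisomerase that untangles sister chromatids, had 14.8, 23.5 and 22.6 adjusted TPM in female B cells, 22.5, 18.3 and 11.6 in male B cells, 2.81, 2.86 and 3.95 in female T cells and 2.65, 2.95 and 4.04 in male T cells. The lowest B cell library was thus above the highest T cell library, and the log2 fold change B over T was 2.21 (SE 0.16, adjusted p = 5.2e-08). Mki67 (chromosome 7, 135689784 to 135716361), whose product Ki-67 coats mitotic chromosomes and is the usual label of dividing cells, had 8.13, 14.8 and 12.5 in female B cells, 11.6, 10.9 and 5.98 in male B cells, 0.210, 0.343 and 0.993 in female T cells and 0.240, 0.283 and 0.591 in male T cells. Its mean was 24.03 times as high in B cells, and its log2 fold change of 2.99 (SE 0.18, adjusted p = 8.8e-09) was the largest of the 40 cell cycle genes tested. By ratio of means, genes near the bottom of the scale in T cells were above it, such as Bub1 (358.3) and Aurkb (143.5). Birc5, the survivin subunit of the chromosomal passenger complex, and the centromere proteins Cenpe and Cenpf were lower than these, with B cell means of 3.12, 2.16 and 1.18 and T cell means of 0.402, 0.289 and 0.0415. All 5 genes of this role passed the test with the higher level in B cells.

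CDK1 and its mitotic cyclins showed the same order. Ccna2 (chromosome 3, 36564865 to 36572150), the A-type cyclin of S and G2 phase, had 4.02, 6.43 and 7.11 in female B cells, 6.44, 5.46 and 2.88 in male B cells, 0.432, 0.395 and 0.503 in female T cells and 0.399, 0.408 and 0.456 in male T cells. No T cell library reached 1, and the log2 fold change was 2.11 (SE 0.15, adjusted p = 5.1e-08). Cdk1, the kinase that drives entry into mitosis, had means of 4.30 in B and 0.314 in T cells, and Ccnb1, a B-type cyclin that activates it, had 2.93 and 0.267. The other B-type cyclin, Ccnb2, had 3.25 and 0.244, but a processed copy, Ccnb2-ps, was listed at 2.79 to 4.53 in all libraries, so the level of Ccnb2 is uncertain where reads are shared. All 4 genes were past the threshold and had no T cell library at 1.

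Among the mitotic kinases, Aurkb (chromosome 11, 69045647 to 69051664) of the chromosomal passenger complex was the highest in B cells. It had 3.93, 6.17 and 6.08 in female B cells, 5.44, 5.39 and 3.57 in male B cells, 0.0462, 0.0334 and 0.0962 in female T cells and 0.00922, 0.0150 and 0.0132 in male T cells. The highest upper bound in T cells was 0.172 and the lowest lower bound in B cells was 3.07, and the log2 fold change was 2.54 (SE 0.11, adjusted p = 2.4e-10). The spindle checkpoint kinase Bub1 was likewise near the bottom of the scale in T cells, at most 0.0128, against 0.717 to 2.26 in B cells. Its relative Bub1b had means of 3.94 and 0.646. Aurka of the spindle poles, with means of 2.37 and 0.859, differed least by ratio of the 7 kinases (2.75), and 1 T cell library, male T cell 6, had 1.24. Plk1, the Polo kinase, was low in both, with 0.514 to 1.37 in B and 0.152 to 0.406 in T cells. Ttk and Melk were under the filter, Ttk at 0.599 to 1.08 and Melk at 0.518 to 1.07 in B cells, while T cells stayed at or under 0.00341 and 0.154, without overlap. Fitted without the filter, both were past the threshold (adjusted p = 2.3e-06 and 6.3e-05).

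The anaphase-promoting complex, the ubiquitin ligase that ends mitosis, was represented by 2 genes. Its activator Cdc20 (chromosome 4, 118432901 to 118437352) had 3.27, 4.63 and 4.31 in female B cells, 4.25, 3.89 and 2.87 in male B cells, 1.44, 1.26 and 1.09 in female T cells and 1.62, 1.41 and 1.25 in male T cells. All T cell libraries were thus above 1 and still below every B cell library, and the log2 fold change B over T was 1.05 (SE 0.09, adjusted p = 4.7e-07). Its ubiquitin-conjugating enzyme Ube2c had a larger ratio, from means of 3.37 and 0.1005.

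Spindle motors and microtubule factors were also higher in B cells, with 1 gene close to equal. Kif11 (chromosome 19, 37376403 to 37421859), the motor that pushes the spindle poles apart, had 3.70, 5.85 and 6.22 in female B cells, 6.34, 4.79 and 2.52 in male B cells, 0.399, 0.314 and 0.684 in female T cells and 0.314, 0.250 and 0.760 in male T cells. The cell types did not overlap, and the log2 fold change was 1.99 (SE 0.18, adjusted p = 3.5e-07). Nusap1 and Tpx2, which bind spindle microtubules, had B cell means of 4.37 and 2.30 and T cell means of 0.390 and 0.0894. The cytokinesis motor Kif20a had 2.06 and 0.490. Kif23, the motor of the central spindle, was the only mitotic gene whose libraries overlapped, at 2.27 to 3.31 in B cells and 1.61 to 2.80 in T cells. Its log2 fold change was 0.29 (SE 0.10, adjusted p = 0.018), and it was not past the threshold under quantile normalization (adjusted p = 0.14).

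The MCM subunits did not share this order and were split between the cell types. They were between 13.4 and 32.2 in B cells and between 8.53 and 35.2 in T cells, and they summed to 131.9 ± 14.6 (SD, n = 6) for B and 141.1 ± 8.94 (SD, n = 6) for T cells, a ratio of 0.93 that was 1.22 after rescaling each library to a common total. Mcm7 (chromosome 5, 138164583 to 138172422), the highest of the 6, had 25.1, 28.8 and 32.2 in female B cells, 27.9, 30.4 and 25.8 in male B cells, 35.2, 33.4 and 32.5 in female T cells and 32.8, 33.1 and 31.6 in male T cells. The cell types overlapped by a single B cell library, female B cell 3. The log2 fold change was -0.22 (SE 0.06, adjusted p = 0.0077) under the authors' scaling and 0.15 (adjusted p = 0.52) after rescaling each library to sum to 1000000. Mcm5 (chromosome 8, 75109569 to 75128439) had 13.4, 21.8 and 17.0 in female B cells, 21.3, 19.1 and 16.7 in male B cells, 11.6, 10.3 and 8.53 in female T cells and 11.2, 10.5 and 9.33 in male T cells. It was the only subunit with every B cell library above every T cell library, although its bounds overlapped, and its log2 fold change was 0.76 (SE 0.11, adjusted p = 4.4e-05).

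Of the other subunits, Mcm3 was higher in B cells (log2 fold change 0.24), a call lost without both T cell libraries numbered 6 (adjusted p = 0.077), and Mcm2, Mcm4 and Mcm6 were higher in T cells by log2 fold changes of -0.34, -0.40 and -0.18 under the authors' scaling, while under the rescaling to a common total Mcm2 and Mcm6 changed sign (0.03 and 0.19) and Mcm4 was close to 0 (-0.03). Mcm6 also lost its call in 7 of the 12 fits that left out 1 library. Within each library, where scaling plays no part, the subunits were more even in B cells. The highest of the 6 was 1.41 to 1.90 times the lowest in the B cell libraries and 2.92 to 3.81 times in the T cell libraries, without overlap. In all 6 T cell libraries the lowest was Mcm5 and the highest Mcm7.

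**Figure D4:**
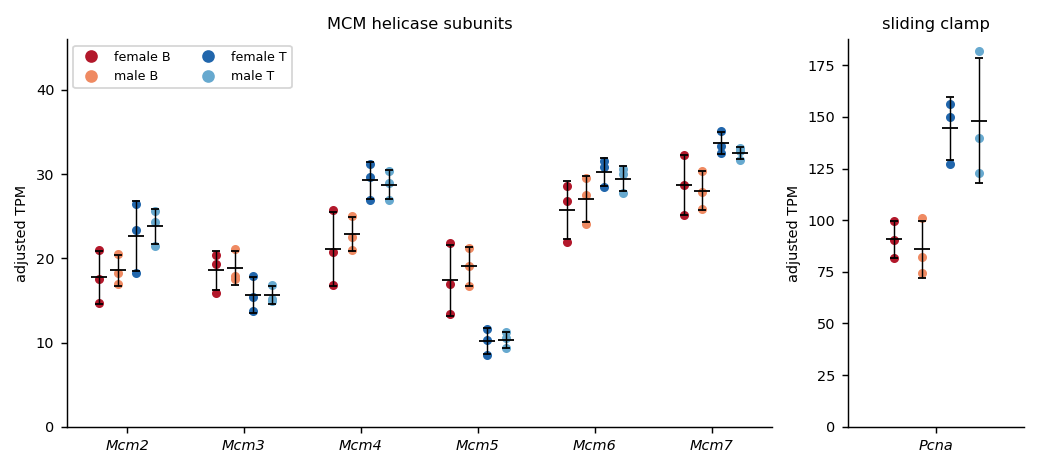
Adjusted TPM of the 6 MCM subunits (left) and of Pcna (right, own axis) in each library, with the mean and SD of the 3 libraries of a group as black bars. Mcm5 is at 8.53 to 11.6 in T cells and 13.4 to 21.8 in B cells, whereas Mcm2, Mcm4, Mcm6, Mcm7 and Pcna have the higher means in T cells under the authors' scaling; Mcm2, Mcm6 and Mcm7 change direction when libraries are rescaled to a common total.

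Pcna (chromosome 2, 132249162 to 132253314) was the most abundant of the 43 genes in every library and was higher in T cells. It had 99.7, 90.7 and 81.7 in female B cells, 101.2, 82.0 and 74.2 in male B cells, 156.3, 150.1 and 127.0 in female T cells and 182.0, 139.7 and 123.0 in male T cells. The 2 cell types did not overlap even in their bounds, and the log2 fold change was -0.72 (SE 0.11, adjusted p = 5.3e-05), or -0.34 (adjusted p = 0.15) after rescaling each library to a common total. Of 2 copies named as its pseudogenes, 1 (Pcna-ps2) was listed at up to 2.46. Without Pcna, the S-phase genes summed to 231.9 ± 21.7 (SD, n = 6) for B and 179.6 ± 9.29 (SD, n = 6) for T cells.

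The 4 genes of this set that load or activate the helicase were higher in B cells. Cdt1 (chromosome 8, 122568015 to 122573554), the loading factor, had 19.2, 21.2 and 20.3 in female B cells, 21.2, 21.6 and 18.2 in male B cells, 14.0, 11.99 and 10.9 in female T cells and 13.6, 11.9 and 12.5 in male T cells. Its spread among B cell libraries was the smallest of the 43 genes, a highest to lowest ratio of 1.19, and the log2 fold change was 0.66 (SE 0.07, adjusted p = 1.8e-06). Cdc6 (chromosome 11, 98907801 to 98923940), its partner in loading, was far lower, with 1.09, 1.86 and 1.43 in female B cells, 1.35, 1.66 and 0.932 in male B cells, 0.222, 0.185 and 0.229 in female T cells and 0.243, 0.182 and 0.168 in male T cells. No T cell library thus came near any B cell library (log2 fold change 0.97, SE 0.09, adjusted p = 7.5e-07). Cdc45 and Gins2, which complete the active helicase, had B cell means of 2.63 and 1.19 and T cell means of 0.930 and 0.390. In T cells the ring subunits were thus at about 10 to 33 adjusted TPM on average, while Cdc6, Cdc45 and Gins2 had means below 1. Other loading and activating genes are among the further replication genes below, and of these Dbf4 was higher in T cells.

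Among genes of nucleotide supply, thymidine kinase 1 differed most. Tk1 (chromosome 11, 117815526 to 117826092) had 14.5, 15.8 and 16.4 in female B cells, 12.4, 16.5 and 18.0 in male B cells, 0.993, 1.16 and 2.09 in female T cells and 1.13, 1.24 and 1.37 in male T cells. Its log2 fold change of 2.84 (SE 0.11, adjusted p = 9.8e-11) was the second of the 40 genes tested, after Mki67. Unlike the mitotic genes, Tk1 was highest in male B cell 3. Rrm1 (chromosome 7, 102441695 to 102469771), the large subunit of ribonucleotide reductase, had 15.4, 21.9 and 19.5 in female B cells, 20.98, 19.7 and 18.4 in male B cells, 10.8, 9.74 and 8.90 in female T cells and 9.64, 8.65 and 10.0 in male T cells, a log2 fold change B over T of 0.93 (SE 0.08, adjusted p = 3.8e-07). Its small subunit Rrm2, the one made mainly in S phase, was lower and differed more, with means of 4.97 and 1.18. Tyms, thymidylate synthase, overlapped between the cell types, at 1.76 to 3.26 in B and 1.44 to 2.15 in T cells, and its log2 fold change of 0.21 passed the threshold under the other scalings by size factors or totals (adjusted p = 0.0041 to 0.043) and without male B cell 3 (adjusted p = 0.041).

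The E-type cyclins and E2F factors, which act at the entry to S phase, were higher in B cells too. E2f2 (chromosome 4, 136172394 to 136196057), an activating E2F, was the most abundant of the 3 factors, with 22.3, 19.6 and 26.2 in female B cells, 25.8, 21.1 and 17.3 in male B cells, 4.61, 5.35 and 5.66 in female T cells and 5.87, 5.71 and 5.48 in male T cells. The groups were about 4 fold apart by their means (ratio 4.04), and the log2 fold change B over T was 1.83 (SE 0.10, adjusted p = 1.7e-09). Ccne1 (chromosome 7, 38097984 to 38107534) had 4.38, 4.34 and 6.05 in female B cells, 5.69, 4.77 and 4.31 in male B cells, 2.38, 2.86 and 3.49 in female T cells and 3.40, 3.93 and 3.56 in male T cells, again without overlap (log2 fold change 0.47, SE 0.10, adjusted p = 0.00072). Ccne2 and E2f1 had B cell means of 2.88 and 1.77 beside T cell means of 1.17 and 0.606. E2f8, a repressing E2F of late S phase, was under the filter at 0.442 to 0.994 in B cells, and T cells stayed at or under 0.0139 (adjusted p = 5.0e-05 without the filter).

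The level of the mitotic genes varied more between B cell libraries than that of the S-phase genes. Their sum was 69.1, 114.9 and 108.3 in female B cells and 109.7, 90.8 and 55.6 in male B cells, a highest to lowest ratio of 2.07, and male B cell 3 was the lowest library for 21 of the 23 genes, beside 13.8% of all genes tested. Female B cell 1 was lowest for the other 2, beside 28.4% of all genes. The S-phase sum ran only from 285.7 to 351.9, a ratio of 1.23, with male B cell 3 lowest for 10 and female B cell 1 for 9 of the 20 genes. The median highest to lowest ratio over B cell libraries was 2.25 for the mitotic genes and 1.48 for the S-phase genes, beside 1.44 for all tested genes with a B cell mean between 1 and 10. The mitotic sum amounted to 19.4% to 33.7% of the S-phase sum within a B cell library and to 3.13% to 4.97% within a T cell library, a measure that no scaling between libraries can change.

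In T cells the mitotic sum was 10.95, 11.5 and 14.6 in females and 12.3, 12.2 and 14.1 in males, so both libraries numbered 6 were above the other 4. Female T cell 6 was the highest library for 13 of the 23 mitotic genes, beside 18.8% of all genes tested. All 13 were under 1 there. Of the 3 mitotic genes at 1 or more in every T cell library, Cdc20 (1.09) and Kif23 (1.61) were lowest in female T cell 6. Top2a was highest in male T cell 6 (4.04). Mki67 was at 0.993 and 0.591 in the libraries numbered 6 and at 0.210 to 0.343 in the other T cell libraries. Of the 6 marker genes for regulatory or activated T cells, 3 were higher in the same libraries. Foxp3 was at 2.57 and 1.82 against 0.440 to 0.735, Il2ra, which encodes CD25, at 4.999 and 4.11 against 0.158 to 0.340, and Ikzf2 at 13.4 and 11.3 against 1.07 to 2.07. Cd44, Cxcr3 and Ifng, the rest of the list, were not among these 3. Over the 6 genes, the highest T cell library was female T cell 6 for 3, male T cell 6 for 2 and female T cell 4 for 1. The lowest was male T cell 6 for 1 of them. The summed level of the list was 31.5 and 23.8 against 9.60 to 14.0. In B cells it was 22.7 to 27.9, so the list is not particular to T cells. All 4 B cell markers were also highest in female T cell 6, at up to 2.00 for Cd79b. The part of these cells in the mitotic values was not tested. Without both libraries, all 21 mitotic genes tested kept their sign and Kif23 alone lost its call (adjusted p = 0.096).

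Markers of germinal centre B cells followed the order of the mitotic sum only in part. Of the 6 markers read here, 4 were lowest in male B cell 3 (S1pr2, Mybl1, Rgs13 and Gcsam), and Bcl6 and Fas were not. In the comparison of the cell types 4 of the 6 were called higher in B cells, beside 31.4% of all genes tested, and Fas was higher in T cells. Gcsam, named after its values were seen, was at 1.31, 4.69 and 1.61 in female and 2.37, 2.22 and 0.646 in male B cells, and T cells stayed at or under 0.00164. The summed level of the list was 35.2 to 59.2 in B and 22.9 to 25.3 in T cells. The highest value of a single gene was 34.8 in B and 16.3 in T cells, so such a sum can be mostly a single gene. None of the 6 was listed at 0 in any library, but neither was any other of the 41128 genes, so this does not show that they were present. Female B cell 3, with a mitotic sum of 108.3, had the lowest summed level of the list, and male B cell 3, with the lowest mitotic sum, had 39.9. The part of germinal centre cells in the mitotic values was not tested.

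**Figure D5:**
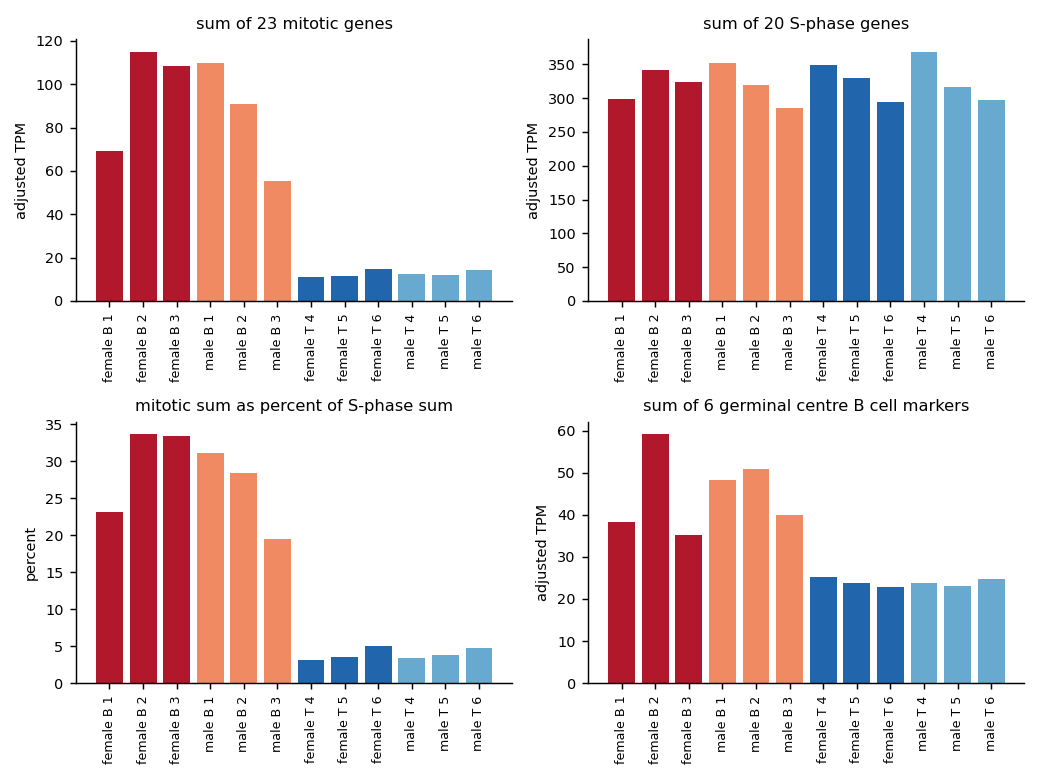
Bars give, for each of the 12 libraries, the summed adjusted TPM of the 23 mitotic genes and of the 20 S-phase genes, the mitotic sum as a percent of the S-phase sum, and the summed adjusted TPM of 6 germinal centre B cell markers. The mitotic sums of B cells (55.6 to 114.9) are all above those of T cells (10.95 to 14.6) while the S-phase sums overlap, and the lowest mitotic sum (male B cell 3) and the lowest marker sum (female B cell 3) of the B cell libraries are in different libraries. The marker sum can be mostly a single gene.

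Other cells that divide or could remain in the preparations were measured in the same way. The 9 red cell precursor genes summed to 43.9 to 382.0 in B and 21.5 to 95.0 in T cells. The highest sums were in male B cell 1 and male B cell 3, whose mitotic sums were 109.7 and 55.6. The 6 plasma cell genes (Sdc1, Prdm1, Xbp1, Irf4, Mzb1 and Jchain) summed to 244.5 to 366.0 in B and 28.0 to 34.7 in T cells. Single genes of the 6 ran from 0.521 to 130.9 in B cells, so the sum does not give a share of plasma cells. Of these 6, 5 were called higher in B cells and 1 in T cells, beside 31.4% and 41.6% of all genes tested. The 7 myeloid genes summed to 9.22 to 13.8 in B and 1.11 to 4.67 in T cells, the 5 precursor B cell genes to 0.874 to 1.75 in B and 6.68 to 8.11 in T cells, where Dntt made up nearly all of it, the 4 natural killer cell genes to 1.23 to 2.61 and 12.1 to 18.0, and the 2 CD8 genes to 0.607 to 2.32 and 5.48 to 8.27. In T cells a single gene reached 17.6 in the natural killer cell list, and a single gene 8.11 in the CD8 list. Of the 4 natural killer cell genes, 2 had every B cell library above every T cell library, and 1 had the reverse (24.2% and 29.7% of all genes tested). Of the 2 CD8 genes, 1 was called higher in B cells and 1 in T cells. The part of these cells in the values of the 43 genes was not tested.

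Females and males did not differ past the threshold in any of the 40 genes tested. In B cells 0 of the 40 were called, beside 0.144% of all genes tested, in T cells 0, beside 0.104%, and for the difference of the sex effects between the cell types 0, beside 0%. None of the 40 had an unadjusted limma p under 0.05 in any of these contrasts, which 2.98%, 2.55% and 2.36% of all genes had. In B cells the smallest p-values were those of Cdc45, with a mean of 2.87 ± 0.735 (SD, n = 3) for females against 2.39 ± 0.632 (SD, n = 3) for males, and of Mki67, with a female over male log2 fold change of 0.29 (SE 0.26, adjusted p = 1). In T cells Ccne1 (log2 fold change -0.25, SE 0.14, adjusted p = 1) and Kif23 (-0.20, SE 0.14, adjusted p = 1) came first, and for the difference of the sex effects Aurka (0.28, SE 0.20, adjusted p = 1) and Ccne1 (0.24, SE 0.19, adjusted p = 1). The standard errors leave room for moderate differences, so the sexes are not shown to be alike.

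Further genes of the cycle were read in the same fit. Of 41 other mitotic genes, 36 were tested. Of these, 31 were higher in B cells and 2 in T cells, beside 31.4% and 41.6% of all genes tested. Their median log2 fold change was 0.98, with 15 of the 36 reaching 1 in B cell libraries only. The kinetochore scaffold Casc5 (also known as Knl1), the condensin subunit Ncapg and the motor Kif15 had the largest changes towards B cells, with log2 fold changes of 1.93, 1.52 and 1.45 and T cell means of 0.498, 0.445 and 0.301. Smc4, a condensin core subunit, went the other way, at 66.7 in B and 328.0 in T cells on average (log2 fold change -2.28, SE 0.06, adjusted p = 2.9e-12), while its partner Smc2 had 12.9 and 9.55. The checkpoint gene Bub3, at 31.4 and 37.4, was the other gene higher in T cells, and it had a log2 fold change of -0.25 that changed sign after rescaling to a common total (0.12, adjusted p = 0.62) and was not past the threshold under median-ratio scaling (adjusted p = 0.070).

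Of 40 other replication genes, 38 were tested, with 18 higher in B cells, 11 higher in T cells and 9 not past the threshold. Of all genes tested, 31.4% were higher in B and 41.6% in T cells. The median log2 fold change of the replication genes was 0.12. Uhrf1, which carries DNA methylation through replication, Pold1, the catalytic subunit of polymerase delta, and Rfc3, a subunit of the clamp loader, were higher in B cells by log2 fold changes of 2.21, 1.86 and 1.46. Pole2, the second subunit of polymerase epsilon, Timeless, of the fork protection complex, and Dbf4, the activator of the kinase Cdc7, were higher in T cells by log2 fold changes of -1.36, -0.999 and -0.87. The catalytic subunit Pole had 4.07 in B and 1.13 in T cells while Pole2 had 3.15 and 9.64, so subunits of a single enzyme went opposite ways. Of 16 genes of the retinoblastoma and E2F repressor system, 15 were tested, 5 were higher in B and 7 in T cells under the authors' scaling, shares near the 31.4% and 41.6% of all genes tested. E2f3, an activating E2F, Rb1 and the anaphase-promoting complex activator Fzr1 were higher in B cells by log2 fold changes of 1.47, 0.74 and 0.64. Rbl1, which encodes p107, the repressor E2f6 and the E2F partner Tfdp1 had log2 fold changes of -0.66, -0.60 and -0.46, and after rescaling each library to a common total 0 genes of this system were called higher in T cells.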

How the data were processed

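Total RNA libraries were prepared, per the labels, with ribosomal RNA depletion and a strand-specific kit, and ERCC spike-ins were added, which were not analysed here. The processing notes name Trim Galore, FastQC, STAR and the build mm10. The quantifier, the annotation, the rescaling and the level of the bounds are not given in the sources used here. The signal deposited by the authors is adjusted TPM with a lower and an upper bound per gene and library. Totals ran from 561020 to 1453940 and protein-coding genes took 38.5% to 68.0% of them, so the scaling between libraries bears on small differences. A single gene, Yam1 or Rn7sk, took 11.4% to 37.4% of a total, so the rescaling to a common total depends on it. Depth is unknown, and only the bounds give the precision of a value.

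Gene positions are those of GENCODE M21 (GRCm38), to which 97.9% of gene identifiers matched. Log2(adjusted TPM + 1) was fitted with limma 3.58.1 in R 4.3.3, with a mean-variance trend and 1 coefficient per group over all 12 libraries, for genes with at least 1 in at least 3 libraries. Contrasts were B against T cells, female against male within each, and their difference. Every p in the text is from limma with Benjamini-Hochberg adjustment over all genes tested, unless called unadjusted. The fit was tested on simulated data. Alternatives were other scalings, pseudocounts, filters and fits without a library or with the label number as a block. Same-numbered female and male T cell libraries deviated together (r = 0.721, 0.548 and 0.521 across genes), and the B cell libraries did not. Tables were handled with Python 3.11.15 and pandas 2.3.3.

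The genes and lists were chosen with earlier results of these data known. In each role, the gene with the highest mean and, with 4 or more genes, the gene with the largest change were given library by library, besides Mki67 and Top2a. Of the other cell cycle lists, the 3 largest changes past the threshold in each direction were named, and in each sex contrast the 2 smallest p-values. The rest were named by role or after their values were seen. Whether replicates came from separate pools of animals is not stated for each library, and p-values then measure only the spread between these libraries. Some label fields describe the molecule as genomic DNA, and the values were treated as RNA. The levels of 3 of the marker genes are not reported here.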

Additional observations from a re-analysis of the deposited data

Results flagged for a closer look

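Over 94 sets of 6 libraries, 4 held a library whose gap to its nearest neighbour was a larger share of the range than Dixon's 95% critical value for 6 values, which chance gives in about 1 in 20 sets. In T cells, Ube2c was at 0.266 in female T cell 6 against 0.0490 to 0.106 in the others (gap 0.719 of the range), and Cenpf at 0.134 against 0.00703 to 0.0369 in the same library (0.753). Cdc45 was at 1.19 in male T cell 6 against 0.821 to 0.946 (0.64). In B cells, Ccne2 was lowest in male B cell 3, at 1.82 against 2.89 to 3.41 (0.717).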

How the results depend on the processing

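Values that depended on the processing are given here against those of the report, log2 values as B over T cells. The median over the 21 mitotic genes (1.57) was 3.19 with a pseudocount of 0.1, 1.90 with libraries rescaled to a common total and 2.39 with protein-coding genes so rescaled. The S-phase median (0.66) became 0.81, 1.03 and 1.07 in the same order. Rescaling to a common total left 0 S-phase genes higher in T cells in place of 5, median-ratio scaling 3 and the protein-coding rescaling 1, and of the 4 MCM subunits among them 0, 2 and 0. The MCM median (-0.20) changed sign to 0.17 and 0.079 under the 2 rescalings, as did Mcm2 (0.029, common total), Mcm6 (0.19 and 0.10), Mcm7 (0.15 and 0.058), Bub3 (0.12 and 0.026) and the difference of the sex effects in Ccne1 (-0.027, common total). The ratio of B to T sums under the 2 rescalings was 1.28 and 1.20 for S-phase genes and 1.22 and 1.14 for MCM subunits, and the mitotic ratio was 9.60 with the common total. The median log2 fold change of all genes was -0.09 under the authors' scaling and 0.25, 0.17 and -0.01 under common total, protein-coding and median-ratio scaling. Without both T cell libraries numbered 6, 1 MCM subunit was higher in B cells in place of 2. The other replication genes went from 11 to 4 and 6 higher in T cells and to medians of 0.47 and 0.40 under the 2 rescalings. The other mitotic genes had medians of 1.56 (pseudocount 0.1), 0.76 (at least 1 in at least 6 libraries), 1.28 (common total), 1.52 (protein-coding) and 0.76 (quantile), and 1 in place of 2 higher in T cells under common total, median-ratio and protein-coding scaling. The repressor genes higher in T cells fell from 7 to 0 and 2 under the 2 rescalings, those higher in B cells went from 5 to 8 under the second, and medians were 0.42, 0.34 and, by median ratio, 0.15. The protein-coding rescaling and the fit without the libraries numbered 6 were chosen after seeing the data. With 1 library left out at a time, 21 mitotic and 13 to 14 S-phase genes were higher in B cells and 4 to 5 S-phase genes in T cells. The MCM subunits higher in T cells were 3 to 4, the mitotic, S-phase and MCM medians kept their sign, and 0 genes differed between the sexes. With the replicate block 0 genes differed between the sexes in either cell type or in the difference, as without it. Same-numbered female and male B cell libraries correlated at -0.169, -0.0382 and -0.337, so the block means no pairing there, and B and T libraries share no numbers. Of 835 refits of single genes over 21 settings, 808 kept direction and side of the threshold, and 32 of 40 genes did so in all of them. The causes were not tested beyond the scaling itself, and without read counts the depth limit of low genes is unknown.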
